A study of Mus musculus with 16 samples.

Results

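Metabotropic glutamate receptors are G protein-coupled receptors that tune synapses on a slower time scale than the glutamate-gated channels. Grm5 encodes the group I receptor mGlu5, which sits mainly on the postsynaptic side and acts through Gq to phospholipase C and intracellular calcium. Grm2 and Grm3 (group II) and Grm7 and Grm8 (group III) encode receptors that act through Gi/o to lower cyclic AMP and, at presynaptic terminals, to restrain transmitter release. These 5 genes were taken by symbol from the 18424 genes of an RNA sequencing data set. The other receptor genes of the family were not analysed here.

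The tissue was the medial prefrontal cortex (mPFC) of male C57BL/6N mice at postnatal day (P) 120. Wild-type (WT) mice were compared with heterozygous (HT, Arid1b+/-) mice, in which CRISPR/Cas9 editing of exon 5 truncates 1 copy of Arid1b, a gene for a SWI/SNF chromatin remodelling subunit. Mothers drank water with 0.2% saccharin alone (Veh) or with fluoxetine, a serotonin reuptake inhibitor, at 0.1 mg per ml (Flx), and their pups took the drug with the milk from P3 to P21. Crossing genotype with treatment gave 4 groups of 4 mice, namely WT-Veh and HT-Veh, WT-Flx and HT-Flx. The mutant line comes from a single edited allele present in every cell, and the dose that reached each pup is not given in the sources used here. Arid1b averaged 2368 (WT-Veh) and 2159 (WT-Flx) normalized counts in the wild types, and 1795 (HT-Veh) and 1636 (HT-Flx) in the heterozygotes. The 2 Flx groups did not overlap, whereas WT-Veh replicate 1 (1787) lay below 2 of the 4 HT-Veh mice (1619 to 2005).

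Some libraries carried olfactory bulb markers at high levels. A bulb score was taken as the average log2(value + 1) over 10 such genes (Eomes, Tbx21 and Cdhr1 among them), and it lay between 8.20 and 10.3 in 5 mice and between 5.64 and 6.55 in the other 11. The 5 bulb-rich mice were replicates 1, 2 and 4 of WT-Flx, replicate 4 of HT-Veh and replicate 1 of WT-Veh, and no HT-Flx mouse was among them. All 10 markers were detected in every group. In HT-Flx most of their summed normalized count came from Reln (1778 to 2037) and Dlx1 (497 to 666). Eomes had 0 to 10.4 in HT-Flx and 899 in WT-Veh replicate 1. The summed count of the 10 markers was 2869.7 to 17942 in WT-Veh and 3194 to 14967 in WT-Flx. It was 2711 to 7117 in HT-Veh and 2746 to 3082 in HT-Flx. The 6 striatal neuron markers summed to 3278 to 6624, 3823 to 7404, 2464 to 11605 and 2339.5 to 6228 in the same order, with the highest striatal score (10.5) in HT-Veh replicate 4. The 6 markers of cortical glutamatergic neurons summed to between 71743 and 98929.8 in all 16 mice. In bulk tissue, fewer cells of a type and less RNA per cell cannot be told apart. The part that bulb or striatal RNA plays in the receptor values was not tested, and the results are given with and without the bulb-rich mice.

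The members lie on 4 chromosomes (GRCm38, GENCODE annotation). Grm5 spans chr7:87584168-88134907 on the plus strand, Grm2 chr9:106643095-106656082 and Grm3 chr5:9485541-9725170 on the minus strand. The group III pair shares chromosome 6, Grm7 at chr6:110645581-111567230 on the plus strand and Grm8 at chr6:27275119-28135178 on the minus strand. All are protein-coding genes, and every value is summed over the exons of all transcripts of a gene.

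The promoters of the group II pair are shown because Grm2 and Grm3, close relatives that couple to the same G proteins, had the most unlike levels across mice of any pair of members (Pearson's r = -0.53 over 16 mice). Each line is the 250 bases upstream of the RefSeq start on GRCm38.p6, read 5′ to 3′ along the gene, with each GC box (GGGCGG, searched on both strands) in capitals.
Grm2, chr9:106656110-106656359, minus strand: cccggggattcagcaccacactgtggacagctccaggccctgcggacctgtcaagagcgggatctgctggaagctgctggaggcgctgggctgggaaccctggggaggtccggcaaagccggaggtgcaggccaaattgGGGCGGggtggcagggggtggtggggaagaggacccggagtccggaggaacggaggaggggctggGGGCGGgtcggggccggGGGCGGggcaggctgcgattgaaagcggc
Grm3, chr5:9725353-9725602, minus strand: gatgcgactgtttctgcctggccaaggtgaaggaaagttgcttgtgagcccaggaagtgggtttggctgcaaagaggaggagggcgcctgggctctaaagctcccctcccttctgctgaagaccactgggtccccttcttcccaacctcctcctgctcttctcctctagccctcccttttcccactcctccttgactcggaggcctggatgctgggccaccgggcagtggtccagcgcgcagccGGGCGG
The Grm2 window held 3 GC boxes and 16 CpG dinucleotides at 71.2% G+C. The Grm3 window held 1 GC box, at its very end, and 8 CpG dinucleotides at 62.4% G+C. Of 32851 RefSeq windows of this length, 32.7% held a GC box, with a median of 6 CpG dinucleotides and 52.4% G+C. Neither window held TATAAA, which 12.4% of all windows did, or TGACG, the half-site of the cyclic AMP response element, which 17.8% did (both strands). Grm7 has 2 and Grm8 has 3 such windows, with 0 or 1 GC box each.

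Levels were compared between members per kilobase of exon. Grm3 stood highest, with a median of 624 normalized counts per kilobase over the 16 mice (364 to 718). Grm5 followed at 513 (334 to 625), Grm2 at 307 (253 to 430), Grm7 at 235 (183 to 276) and Grm8 at 45.8 (33.8 to 60.8). Grm3 exceeded Grm5 in 14 of 16 mice, Grm5 exceeded Grm2 in 14, and Grm2 exceeded Grm7 in all 16, but the ranges of each of these neighbours overlapped. Grm8 was below Grm7 in every mouse with no overlap. With the longest protein-coding transcript as the length, Grm5 (median 653 per kilobase) came above Grm3 (624) in 12 of 16 mice, and Grm2 exceeded Grm7 in 5 of 16. The order of these neighbours therefore depends on the transcript length, whereas the low place of Grm8 (118 per kilobase) does not.

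**Figure D1:**
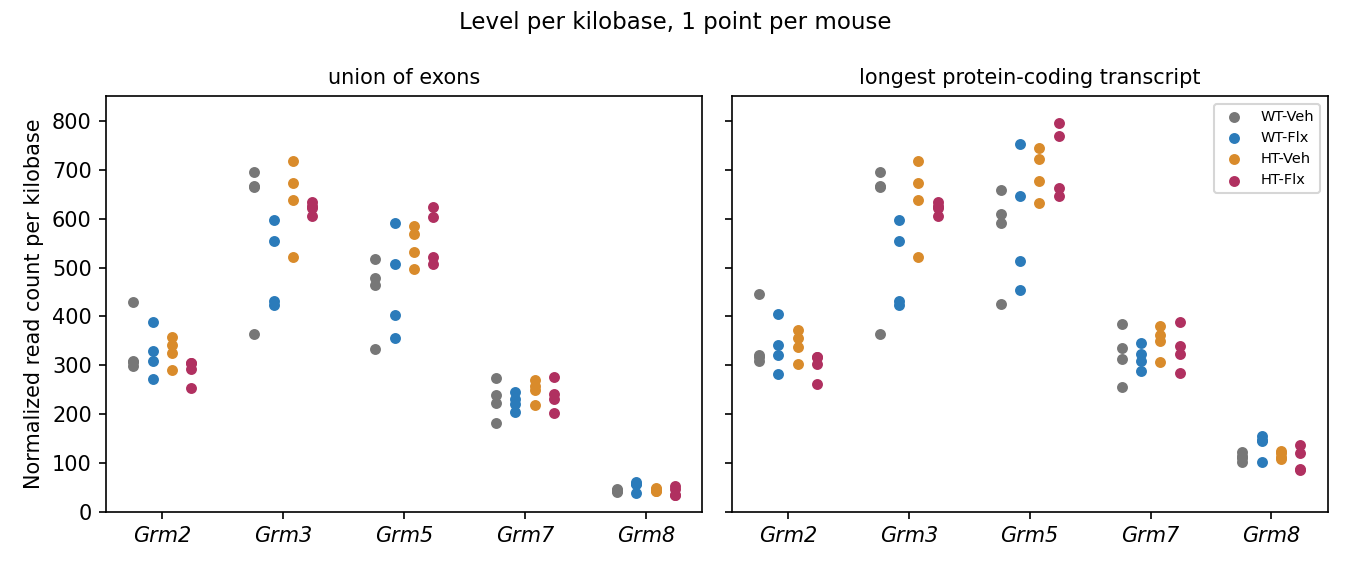
Normalized read count per kilobase of each receptor gene (y axis), with 1 point per mouse coloured by group. The left panel divides by the union of exons and the right panel by the longest protein-coding transcript. Grm3 and Grm5 change places between the panels, and Grm8 is lowest in both.

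Grm5, the group I receptor of the set, was measured at 3419, 4904, 5302 and 4757 normalized counts in WT-Veh replicates 1 to 4. The HT-Veh mice had 5984, 5818, 5449 and 5084. The lowest HT-Veh mouse lay below the highest WT-Veh mouse, and 3 of 4 HT-Veh mice lay above every WT-Veh mouse. The WT-Flx mice had 3647, 6065, 5201 and 4124, and the HT-Flx mice 5198, 6403, 5339 and 6192. The 3 lowest values of all (3419, 3647 and 4124) belonged to 3 of the 4 bulb-rich WT mice, while the remaining one, WT-Flx replicate 2, was among the highest.

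Over both treatments Grm5 was 1.23-fold higher in HT than in WT mice (log2 change 0.30 ± 0.10 SE, 95% interval 0.087 to 0.51). Its unadjusted p was 0.00827 and its adjusted p was 0.324 in limma, which does not pass the threshold of 0.05. An exact permutation test of this single value, two-sided and within treatments, gave p = 0.0159. Without the 5 bulb-rich mice the log2 change was 0.18, as the plain average of the vehicle and fluoxetine arms. The fluoxetine arm then rests on 1 WT-Flx mouse (replicate 3), with the spread taken from the other groups. In the 11 other mice, pooled over treatments, the mean was 5041 ± 254 (SD, n = 4) in WT and 5769 ± 455 (SD, n = 7) in HT. With the bulb score as a covariate the log2 change was 0.19, with an unadjusted p of 0.0665.

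In all mice the Grm5 difference had a similar size in the vehicle and fluoxetine arms. It was 0.30 ± 0.13 (SE) on the log2 scale for HT-Veh against WT-Veh (unadjusted p = 0.0396, adjusted p = 0.922, limma; exact permutation p = 0.0571). It was 0.30 ± 0.15 (SE) for HT-Flx against WT-Flx (unadjusted p = 0.0611, adjusted p = 0.492, limma; exact permutation p = 0.143). The interaction (the response of HT to the drug less the response of WT) was 0.0060 with an interval of -0.43 to 0.45, which is wide enough to hold a difference as large as the genotype effect itself. Leaving out the bulb-rich WT-Veh replicate 1 brought the vehicle-arm value from 0.30 to 0.16. In the vehicle arm the value was 0.25 with the bulb score as a covariate (unadjusted p = 0.00124, adjusted p = 0.205, limma). In that fit 9.86% of all genes had an unadjusted p under 0.05, beside 4.88% without the covariate. Without the bulb-rich mice the vehicle-arm value was 0.21. The fluoxetine-arm value of 0.30 became 0.18 without WT-Flx replicate 1, 0.43 without WT-Flx replicate 2 and 0.15 without the bulb-rich mice. The last of these rests on 1 WT-Flx mouse. With bulb and striatal scores as covariates the vehicle and fluoxetine arms stood at 0.25 and 0.12.

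Fluoxetine itself changed the mean of Grm5 little. The log2 change was 0.047 in HT (95% interval -0.14 to 0.23) and 0.041 in WT (-0.35 to 0.44).

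Grm3, a group II receptor gene active in astrocytes as well as neurons, had the largest coefficient of variation of the 5 members (17.7% over all mice). The WT-Veh mice had 1110.2, 2025, 2031 and 2118 normalized counts. The WT-Flx mice had 1313, 1687, 1819 and 1289.9. The HT-Veh mice had 2053, 1949, 2189.9 and 1593, and the HT-Flx mice 1848, 1896, 1934 and 1909. The 4 HT-Flx mice lay within 1.05-fold of each other, whereas the WT-Veh mice spanned 1.91-fold. The 5 lowest values of all 16 mice were those of the 5 bulb-rich mice (1110.2 to 1687), below the 1819 to 2189.9 of the other 11.

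HT-Flx against WT-Flx was the only comparison of 2 groups in which a member's groups did not overlap, and that member was Grm3. It was 1.26-fold higher in HT-Flx (log2 change 0.33 ± 0.12 SE, 95% interval 0.070 to 0.59), with an unadjusted p of 0.0169 and an adjusted p of 0.387 in limma. The exact permutation p was 0.0286, the smallest that 4 against 4 mice can give. Of the WT-Flx mice 3 were bulb-rich, and the log2 change was 0.060 (-0.13 to 0.25) without them, with 1 WT-Flx mouse left whose spread was taken from the other groups. It was 0.055 (-0.33 to 0.44) with the bulb score as a covariate, an interval that still holds the 0.33 of all mice. With bulb and striatal scores together it was -0.049 (-0.28 to 0.18).

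Grm3 in HT-Veh and WT-Veh differed by less than the spread between mice, by 0.13 on the log2 scale (-0.30 to 0.57). Over both treatments the genotype value was 0.23 ± 0.12 (SE; unadjusted p = 0.0699, adjusted p = 0.448, limma), and 0.031 (-0.087 to 0.15) without the bulb-rich mice. Fluoxetine gave -0.22 in WT (-0.69 to 0.24) and -0.027 in HT (-0.23 to 0.17). The WT value was -0.45 without WT-Veh replicate 1 and -0.18 without all 5 bulb-rich mice. Over both genotypes the log2 change with fluoxetine was -0.13 in all 16 mice (unadjusted p = 0.308, limma). It was -0.15 in the 11 mice that were not bulb-rich. That value and the -0.18 in WT rest in part on 1 WT-Flx mouse (replicate 3).

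Grm2, the other group II gene and a presynaptic autoreceptor of glutamatergic terminals, had 2103, 1459, 1497 and 1510.3 normalized counts in WT-Veh. The WT-Flx mice had 1906, 1613, 1327 and 1515. The HT-Veh mice had 1675, 1755, 1586 and 1425, and the HT-Flx mice 1236, 1489.7, 1427 and 1494. WT-Veh replicate 1, in which Grm3 was lowest of all mice, was the highest mouse for Grm2. In HT-Veh the order was different, since the bulb-rich replicate 4 had the lowest Grm2 of its group.

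Grm2 had the lowest unadjusted p of the members for fluoxetine in HT mice. HT-Flx was at 0.877-fold of HT-Veh (log2 change -0.19 ± 0.088 SE, 95% interval -0.38 to 0.0029), with an unadjusted p of 0.053, an adjusted p of 1 in limma and an exact permutation p of 0.114. The bulb-rich HT-Veh mouse (1425) lay within the range of the 4 HT-Flx mice (1236 to 1494), and the other 3 HT-Veh mice had 1586 to 1755. Leaving that mouse out was chosen after seeing the data. The share of all genes whose groups part without it was not computed. In the fit without all 5 bulb-rich mice the log2 change was -0.25 (-0.41 to -0.081), with an unadjusted p of 0.00685 and an adjusted p of 0.859. With all mice, fluoxetine in WT gave -0.042 (-0.36 to 0.28) and the interaction was -0.15 (-0.52 to 0.22). Without the bulb-rich mice they were -0.17 (-0.42 to 0.085) and -0.081 (-0.38 to 0.22), so that a difference between the genotypes in this response was not shown. Over both genotypes fluoxetine gave -0.12 with all mice (unadjusted p = 0.201, limma). It was -0.21 without the bulb-rich mice, as the plain average of the HT and WT values. In the fit without the bulb-rich mice the WT, interaction and both-genotype values rest on 1 WT-Flx mouse (replicate 3).

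The genotype values of Grm2 were small and changed sign with the bulb-rich mice. They were -0.016 for HT-Veh against WT-Veh and -0.16 for HT-Flx against WT-Flx, and 0.17 and 0.085 without those mice. None of these 4 values had an unadjusted p under 0.05.

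**Figure D2:**
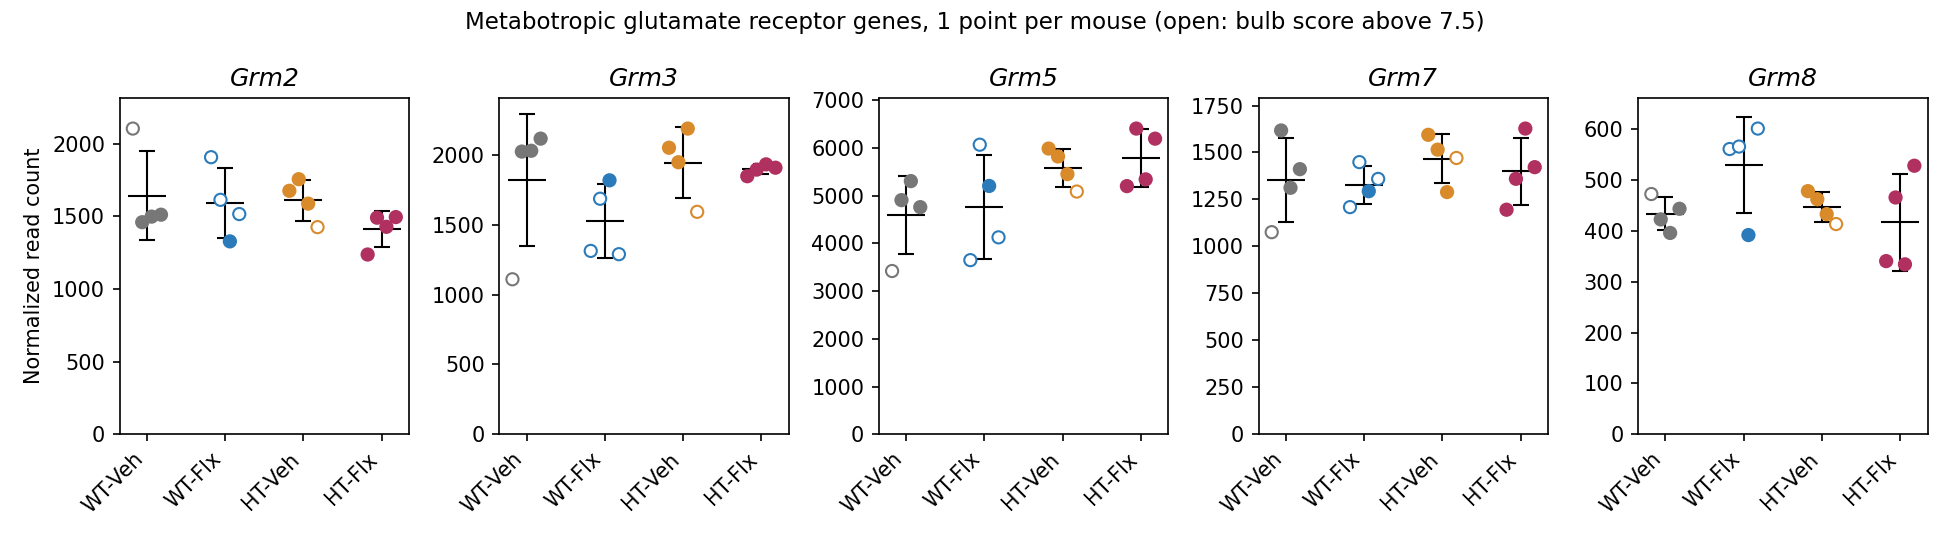
Normalized read count of the 5 receptor genes (y axes, each from 0), with 1 point per mouse in the 4 groups. Bars are the mean ± SD of 4 mice and open points are the 5 mice with a bulb score above 7.5. The open points hold the lowest Grm3 values, and Grm5 is higher on average in both HT groups than in both WT groups.

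Grm7, a group III receptor gene whose product is placed at the presynaptic active zone, varied least of the 5 members, with a coefficient of variation of 11.4% over all mice. It had 1076, 1617, 1312 and 1411 normalized counts in WT-Veh and 1209, 1449, 1294 and 1359 in WT-Flx. The HT-Veh mice had 1594, 1515, 1289 and 1471, and the HT-Flx mice 1195, 1359.8, 1627 and 1422. All 4 groups overlapped, and the lowest mouse was again WT-Veh replicate 1. The log2 changes of Grm7 in the 7 comparisons lay between -0.071 and 0.13, with unadjusted p between 0.236 and 0.9. The genotype interval over both treatments was -0.071 to 0.27 and the fluoxetine interval -0.21 to 0.13.

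Grm8, the other group III gene, had 473, 423, 396 and 444 normalized counts in WT-Veh and 561, 566, 392 and 602 in WT-Flx. The HT-Veh mice had 479, 463, 433 and 414, and the HT-Flx mice 341, 466, 334 and 529. The WT-Flx values split into 3 that lay above every mouse of the other groups and 1 that lay below every WT-Veh and HT-Veh mouse. The 3 high mice were the bulb-rich ones and the low mouse was replicate 3, which was not. The HT-Flx values split as well, without any bulb-rich mouse.

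On average Grm8 was 1.21-fold higher in WT-Flx than in WT-Veh (log2 change 0.27, 95% interval -0.044 to 0.59, unadjusted p = 0.0844). It was 0.783-fold in HT-Flx relative to WT-Flx (-0.35, interval -0.75 to 0.041, unadjusted p = 0.0749). The interaction was -0.40 (interval -0.85 to 0.055), with an unadjusted p of 0.0813 and an adjusted p of 0.998 in limma. Without the bulb-rich mice these 3 values were -0.10, 0.062 and -0.060, and all 3 then rest on 1 WT-Flx mouse (replicate 3), with the spread taken from the other groups. In vehicle mice the genotypes differed by 0.044 (-0.16 to 0.25).

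No member passed the adjusted threshold in any of the 7 comparisons, in a data set where few genes did. The share of all tested genes with an adjusted p under 0.05 was 0.0178% for HT-Veh against WT-Veh, 0% for HT-Flx against HT-Veh, 0% for WT-Flx against WT-Veh and 0.0417% for HT-Flx against WT-Flx. It was 0.0398% for genotype, 0% for fluoxetine and 0% for the interaction. At an unadjusted p under 0.05, 1 of 5 members was counted in HT-Veh against WT-Veh (Grm5), where 4.88% of all genes were. The count was 1 (Grm3) in HT-Flx against WT-Flx, where 10.4% of all genes were, and 1 (Grm5) for genotype over both treatments, where 11.9% were. It was 0 of 5 in HT-Flx against HT-Veh (3.07% of all genes), in WT-Flx against WT-Veh (4.2%), for fluoxetine over both genotypes (3.11%) and for the interaction (4.29%). Groups without overlap were found for 0 of 5 members in HT-Veh against WT-Veh (3.84% of all genes), 0 in HT-Flx against HT-Veh (1.99%) and 0 in WT-Flx against WT-Veh (2.89%). They were found for 1 of 5 in HT-Flx against WT-Flx, where 5.83% of all genes had them. Of 30 exact permutation tests on single members, 2 gave p under 0.05. These p-values were not adjusted, and the share of all genes under 0.05 was not computed for this test.

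**Figure D3:**
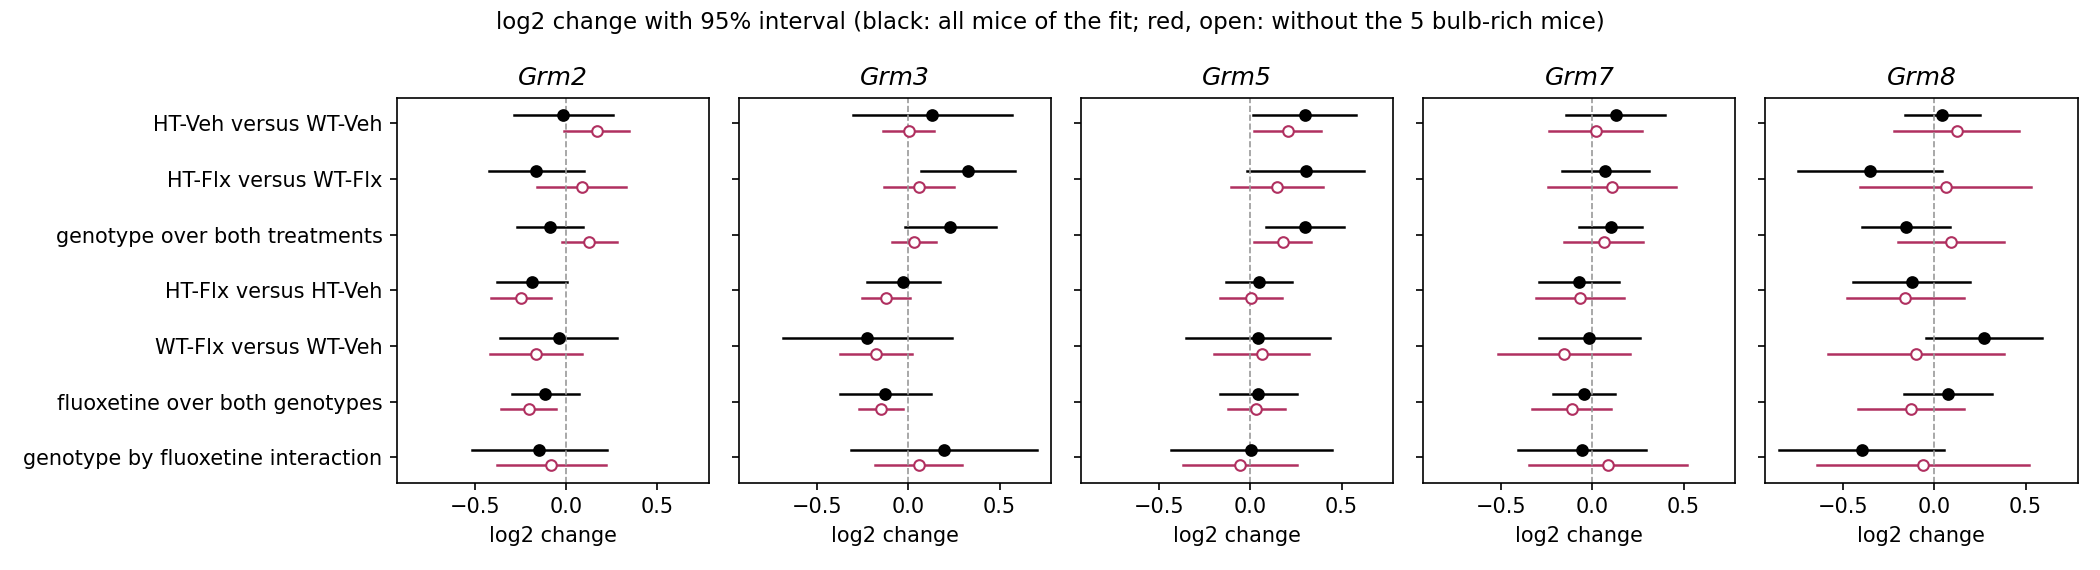
The log2 change of each receptor gene (x axis) in the 7 comparisons (y axis), with 95% intervals from limma. Black points use all mice of the comparison and red open points leave out the 5 bulb-rich mice, which leaves 1 WT-Flx mouse. The Grm5 point estimates stay above 0 in the 3 genotype comparisons in both fits. In HT-Flx against WT-Flx the Grm5 interval holds 0 in both fits. The Grm3 and Grm8 values of HT-Flx against WT-Flx move to near 0 without the bulb-rich mice.

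Across the 16 mice the members did not vary as 1 block. On the log2 scale Grm3 and Grm5 went together (Pearson's r = 0.78), and each went with Grm7 (0.56 and 0.58). Grm2 went with Grm8 (0.56) and against Grm3 (-0.53) and Grm5 (-0.49). The group II pair and the group III pair (Grm7 and Grm8, -0.087) were thus not the pairs that moved together. These correlations describe 16 libraries that share the bulb-rich mice. Grm2 averaged 1712 in the 5 bulb-rich mice and 1496 in the others, Grm8 523 and 427, Grm3 1399 and 1979, Grm5 4468 and 5504, and Grm7 1313 and 1422.

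**Figure D4:**
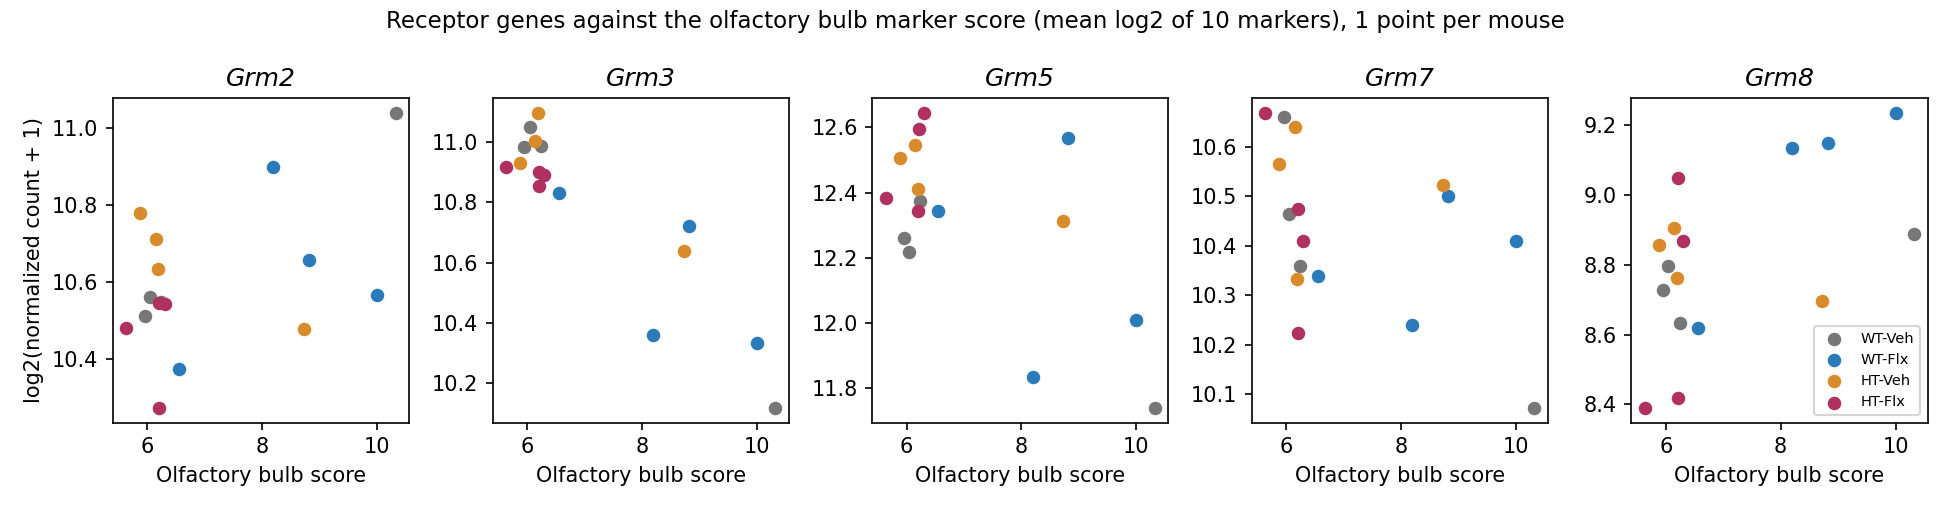
The log2(normalized count + 1) of each receptor gene (y axis) against the olfactory bulb score of the same library (x axis, mean log2 of 10 markers), with 1 point per mouse coloured by group. Grm3 is lower in all 5 mice with a score above 7.5, whereas Grm2 and Grm8 are mixed, with HT-Veh replicate 4 at the low end.

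The genes most like each member over the 16 mice were ranked by Pearson's r of log2 values among 17566 other genes, as a description of these libraries. For Grm3 they were Adcy1 (r = 0.98), which encodes a calcium-stimulated adenylyl cyclase, Gm37266 (0.97) and Rims1 (0.97), which encodes an active zone scaffold. For Grm5 they were Dnm3 (0.95), which encodes a neuronal dynamin, Stxbp5 (0.95), which encodes tomosyn, and Vldlr (0.95), a reelin receptor gene. For Grm2 they were Sdr39u1 (0.90), Mrps25 (0.88), which encodes a mitochondrial ribosomal protein, and BC004004 (0.87). For Grm8 they were Mfap1b (0.94), Smap1 (0.90) and Atp6ap1 (0.86), which encodes an accessory subunit of the vacuolar proton pump. The Grm7 list held Gm20768 (0.85), Dgkq (0.83), a diacylglycerol kinase gene, and Gm43320 (0.81). Gm20768 and Gm43320 had at most 16.4 and 20.6 normalized counts in any mouse.

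Around the receptors, 35 genes of signalling and anchoring were described as a list, and none passed the adjusted threshold in any comparison in limma. For genotype over both treatments, 11 of 35 had an unadjusted p under 0.05 against the 11.9% of all genes given above, and 22 lay above 0, where 51.1% of all genes did. The list median was 0.13 on the log2 scale beside 0.0044 for all genes. In HT-Flx against WT-Flx the numbers were also 11 and 22, with a median of 0.15 beside 0.0081. With the bulb score as a covariate, 2 of 35 had an unadjusted p under 0.05 for genotype (5.5% of all genes). For HT-Flx against WT-Flx 0 of 35 had such a p in the covariate fit (2.23%). Without the bulb-rich mice the counts at an unadjusted p under 0.05 were 4 of 35 for genotype (6.53% of all genes in that fit) and 1 of 35 in HT-Flx against WT-Flx (5.8%), and the medians 0.046 and 0.057. In HT-Veh against WT-Veh the count was 0 of 35 with all mice (4.88% of all genes), 4 without the bulb-rich mice (5.35%) and 6 with the bulb score as a covariate (9.86%). In WT-Flx against WT-Veh it was 0 with all mice (4.2%), 1 without the bulb-rich mice (4.15%) and 3 with the covariate (5.92%). It was 1 in HT-Flx against HT-Veh (3.07%) and 1 for fluoxetine (3.11%), in both cases Elfn1, and 0 for the interaction (4.29%). With the covariate these 3 counts were 1 (3.75%), 2 (3.85%) and 2 (5.64%). Without the bulb-rich mice these last 3 counts were 2 (5.36%), 0 (4.2%) and 1 (4.79%).

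On the Gq side, which carries Grm5 signals, 6 of 7 genes lay above 0 for genotype with all mice, beside 51.1% of all genes. Of the 7, 3 had an unadjusted p under 0.05 in limma, beside 11.9% of all genes. With the bulb score as a covariate 6 lay above 0 and 0 had such a p, beside 5.5% of all genes. Without the bulb-rich mice, with 1 WT-Flx mouse left, 6 lay above 0. Itpr1, the calcium release channel opened by inositol trisphosphate, had 19311 ± 4621 normalized counts in WT-Flx and 26059.7 ± 1575 in HT-Flx (SD, n = 4 each). Its log2 change was 0.46 (unadjusted p = 0.00835, adjusted p = 0.355, limma), and 0.091 without the bulb-rich mice.

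On the Gi/o side, shared by the other 4 receptors, 5 of 7 genes lay below 0 for genotype, beside the 51.1% of all genes above 0. Adcy8, an adenylyl cyclase gene, averaged 592 and 584 in WT-Veh and WT-Flx against 461 and 407 in HT-Veh and HT-Flx. Its log2 change was -0.42 ± 0.12 (SE) over both treatments (unadjusted p = 0.00263, adjusted p = 0.269, limma), -0.33 in HT-Veh against WT-Veh, and -0.17 over both treatments without the bulb-rich mice. Gnai2, a Gi subunit gene, differed by 0.18 in WT-Flx against WT-Veh (unadjusted p = 0.108), and by 0.074 without the bulb-rich mice (unadjusted p = 0.526).

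Among 13 scaffolds and partners, 10 lay above 0 for genotype and 5 had an unadjusted p under 0.05, beside 51.1% and 11.9% of all genes. Without the bulb-rich mice 10 lay above 0 and 1 had an unadjusted p under 0.05. That gene was Ncdn (log2 change 0.15, unadjusted p = 0.0325), which encodes neurochondrin and is named here after its value was seen. Shank2, a postsynaptic scaffold that is linked to mGlu5 through Homer proteins, had 6242 ± 1044 in WT-Flx and 8405 ± 767 in HT-Flx (SD, n = 4 each). Its log2 change was 0.44 (unadjusted p = 0.00299, adjusted p = 0.322, limma), and 0.13 without the bulb-rich mice. In HT-Flx against HT-Veh it was 0.20 (unadjusted p = 0.0514), and 0.13 without the bulb-rich mice. Shank3, of the same family, differed by 0.20 for genotype over both treatments (unadjusted p = 0.0112, adjusted p = 0.347, limma), and by 0.082 without the bulb-rich mice. Elfn1, which encodes a postsynaptic adhesion protein that recruits mGlu7 to the facing terminal, had 833 ± 129 in HT-Veh and 1033 ± 64.4 in HT-Flx (SD, n = 4 each). Its log2 change was 0.32 (unadjusted p = 0.0105, adjusted p = 1, limma), and 0.28 without the bulb-rich mice. Of the 8 regulators (RGS proteins, receptor kinases, arrestins and a ubiquitin ligase), 4 lay on each side of 0 for genotype. An unadjusted p under 0.05 was found for 1 of them, beside 11.9% of all genes.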

How the data were processed

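RNA sequencing of mPFC was analysed for 16 mice, 1 library each, with groups and replicate numbers from the sample titles. The authors prepared poly-A libraries (a stranded kit, per the labels), quantified transcripts with Salmon 1.1.0 (quasi-mapping, GC bias correction) on GRCm38, summarised them with tximport and normalized them in DESeq2 1.30.1. The deposited signal is a normalized read count per gene, an estimated count divided by a normalization factor. The values were not whole reads, so the sequencing depth is unknown and no count test, interval or floor that needs it was used. Normalized totals were 92.8% to 104% of their mean.

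Each comparison was tested with limma 3.58.1 (R 4.3.3, intensity trend, two-sided) on log2(value + 1), over genes of at least 10 in at least 4 samples of the fit, with p adjusted over all genes by Benjamini and Hochberg (threshold 0.05). Fold changes on this scale understate those of low genes. Pairs of groups were fitted alone. Genotype and fluoxetine effects were fitted additively in all mice, and the interaction with 1 mean per group. Fits without the bulb-rich mice, or with bulb and striatal scores together, used 1 mean per group for every comparison. Their genotype and fluoxetine values are plain averages over the arms. Without the bulb-rich mice WT-Flx held 1 mouse. Single values were compared by exact permutation over mice. The p-values measure the spread between mice, each counted as independent. The drug was given to mothers, and the labels do not name litters. Mice of a group may thus share a mother, and the part of litter was not tested. Members, lists and tests were chosen with earlier results of these data known. Named genes were the members, Arid1b, the 3 genes most correlated with each member, and the 2 listed pathway genes with the smallest p in each comparison of 2 groups and for genotype, of which 1 gene is not reported here. Symbols, positions and exon lengths came from GENCODE on GRCm38, and promoters from RefSeq, where 4 of 5 members matched and Grm5 did not.

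Alternatives were pseudocounts of 0.1 and 8, no filter, quantile and upper quartile scaling, the bulb score as covariate, sample weights, a replicate block, all 4 groups in the fit and each mouse left out. Leaving out bulb-rich mice at a score of 7.5, and bulb and striatal scores together, were chosen after seeing the data. Only the main limma fits and the exact permutation between pairs of groups were tried on simulated data. The permutation within treatments was not tried in this way. Nor were the fits with bulb or striatal scores, or those without the bulb-rich mice.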

Additional observations from a re-analysis of the deposited data

Results flagged for a closer look

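Each member was examined in each group of 4 mice for a mouse far from the other 3, that is, a gap to the nearest mouse that is a larger part of the group's range than Dixon's 95% limit. Of 20 such groups, 2 held such a mouse, where chance gives about 1 in 20. Grm2 in WT-Veh had its highest mouse at 2102.77 normalized counts, with a gap of 0.92 of the range, and the other 3 mice lay between 1459 and 1510.3. Grm3 in WT-Veh had its lowest mouse at 1110.21, with a gap of 0.908 of the range, and the other 3 lay between 2025 and 2118. Both were WT-Veh replicate 1, which also had the highest bulb score of all 16 mice (10.3) and the lowest Grm5 and Grm7 values. The part of bulb RNA in these 2 values was not tested.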

How the results depend on the processing

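No member passed the adjusted threshold in any comparison under any alternative, where 154 refits gave at most 0 members and the smallest adjusted p over 770 refitted member values was 0.171. This says only that no call was made, since the sequencing depth is unknown and 4 mice per group limit the precision. Of 35 member log2 changes, 14 kept their sign in every refit and 21 changed it in at least 1; none of these 21 passed the threshold, and the cause was not tested. The largest moves followed the bulb-rich mice, of which WT-Flx had 3 of 4. Leaving out mice with a bulb score above 6, as planned, was not run, since 0 WT-Flx mice remained; 7.5 was used in its place.

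With the bulb score as a covariate, the sign changed for Grm2 in HT-Veh against WT-Veh (0.0083), Grm3 (0.0034) and Grm7 (0.059) in WT-Flx against WT-Veh, Grm8 in HT-Flx against WT-Flx (0.11), and Grm3 (-0.13) and Grm5 (-0.17) in the interaction. With bulb and striatal scores it changed for Grm2 in HT-Veh against WT-Veh (0.018), Grm5 in HT-Flx against HT-Veh (-0.0058), Grm7 in WT-Flx against WT-Veh (0.043), Grm3 (-0.049) and Grm7 (-0.042) in HT-Flx against WT-Flx, and Grm3 (-0.11) and Grm5 (-0.13) in the interaction. Without bulb-rich mice it changed for Grm2 in HT-Veh against WT-Veh (0.17), HT-Flx against WT-Flx (0.085) and genotype (0.13), Grm8 in WT-Flx against WT-Veh (-0.10), HT-Flx against WT-Flx (0.062), genotype (0.092) and fluoxetine (-0.13), and Grm5 (-0.059) and Grm7 (0.087) in the interaction. With sample weights it changed for Grm2 (0.14) and Grm3 (-0.019) in HT-Veh against WT-Veh, Grm5 in HT-Flx against HT-Veh (-0.0021), Grm2 in WT-Flx against WT-Veh (0.00049) and genotype (0.042), and Grm5 (-0.047) and Grm7 (0.041) in the interaction. The Grm5 interaction was -0.040 with quantile and -0.016 with upper quartile scaling.

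Leaving out each mouse in turn changed signs within these ranges. In HT-Veh against WT-Veh they were -0.067 to 0.11 for Grm2 and -0.090 to 0.23 for Grm3, each crossing 0 without WT-Veh replicate 1. In HT-Flx against HT-Veh they were -0.12 to 0.033 for Grm3, -0.0035 to 0.097 for Grm5 and -0.15 to 0.0024 for Grm7. In WT-Flx against WT-Veh they were -0.13 to 0.083 for Grm2, -0.094 to 0.16 for Grm5 and -0.12 to 0.074 for Grm7. The range of Grm7 in HT-Flx against WT-Flx was -0.0029 to 0.15, and that of Grm5 for fluoxetine -0.018 to 0.099. In the interaction they were -0.11 to 0.14 for Grm5 and -0.15 to 0.051 for Grm7.

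The replicate block gave 0 members called in every comparison, as without it. Deviations of same-numbered mice correlated between -0.225 and 0.31 over 24 pairs (9 above 0.1). The labels give these mice no more than a number, and whether they share a litter or batch was not tested.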
